A study of Mus musculus with 4 samples.

Results

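The 45 genes described here build the kinetochore and run the spindle checkpoint, and were measured in parthenogenetic haploid and parthenogenetic diploid mouse embryonic stem cells (ESCs). They were chosen by name, and the choice was made with earlier results of these data known. The 48 listed names include an older and a current name for Knl1, Sgo1 and Sgo2a. All 45 genes were on the array, with 59 probes in all, found through the RefSeq accession of each probe. Of the 45, 44 were among the 17963 features compared, and the brightest probe stood for its gene. Cenpf did not pass the filter on dim probes. The genes were divided into 18 of the inner centromere, 16 of the outer kinetochore and 11 of the checkpoint, with the shugoshins in the last class.

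The haploid group was 2 arrays of parthenogenetic haploid ESCs, of a line 1 and a line 2, and the diploid group was 2 arrays of parthenogenetic diploid ESCs, also of a line 1 and a line 2. All cells were female and carried a genome of maternal origin only, since parthenogenetic cells come from an unfertilised egg. Each line was measured on 1 array, the labels name no treatment, allele or age, and they do not say whether haploid and diploid lines of 1 number share an origin. Haploid ESCs tend to turn diploid in culture, and the labels do not state what share of the cells was haploid at harvest.

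The title of the series concerns the G2/M transition, and the genes here act just after it. The kinetochore is the protein assembly on each centromere that holds chromosomes to spindle microtubules. Its inner part is built on nucleosomes that carry the histone variant CENP-A, and its outer part holds the NDC80 complex, which grips the microtubule. Kinetochores without a microtubule recruit MAD and BUB proteins, which hold back the anaphase-promoting complex until every chromosome is attached. Most of these genes are expressed mainly late in the cell cycle, in G2 and mitosis, and many carry in their promoters a cell cycle homology region (CHR), an element through which the DREAM complex silences genes in resting cells and its MYB-MuvB forms activate them later.

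Promoter sequences were searched for the CHR letters TTTGAA and TTCGAA and for the CCAAT box, on both strands, in windows from 250 bases before to 50 after each gene's start (RefSeq, GRCm38.p6). TTCGAA reads the same on both strands, and no match of 1 of these motifs is a match of another. Of the 45 genes 41 had a window. TTTGAA was present in 18 of the 41 (43.9%), against 20.2% of all 27025 genes with a window. TTCGAA was present in 5 of the 41 (12.2%), against 1.80% of all genes, and CCAAT in 28 (68.3%), against 41.1%. Either CHR form was found in 22 genes, in 17 of which it began within 50 bases of the start. The promoters of 4 genes are shown because they hold a CHR match and belong to the genes whose signals stood furthest from equality relative to their error. Each runs from 250 bases before to 30 after the start, with CHR letters in capitals. The first, Bub1b, is chr2:118597961-118598240 (plus strand, TTCGAA beginning at position -188, and a further match at 41 beyond the bases shown). Hjurp is chr1:88277550-88277829 (minus strand, match at 20), Ttk is chr9:83834439-83834718 (plus strand, match on the opposite strand at 8) and Cenpa is chr5:30666636-30666915 (plus strand, match at 17). Positions count from 1 at the start, with negative numbers before it.
Bub1b: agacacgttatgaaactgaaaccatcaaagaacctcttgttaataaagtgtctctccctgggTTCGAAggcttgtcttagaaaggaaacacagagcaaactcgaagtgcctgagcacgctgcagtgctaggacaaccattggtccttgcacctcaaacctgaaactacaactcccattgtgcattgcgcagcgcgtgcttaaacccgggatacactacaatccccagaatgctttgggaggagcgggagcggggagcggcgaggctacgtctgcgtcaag
Hjurp: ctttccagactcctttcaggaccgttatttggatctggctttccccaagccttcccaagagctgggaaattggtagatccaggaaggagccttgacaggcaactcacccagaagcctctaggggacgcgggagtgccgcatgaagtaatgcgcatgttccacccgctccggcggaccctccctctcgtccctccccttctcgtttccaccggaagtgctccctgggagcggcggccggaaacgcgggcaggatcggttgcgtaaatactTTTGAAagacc
Ttk: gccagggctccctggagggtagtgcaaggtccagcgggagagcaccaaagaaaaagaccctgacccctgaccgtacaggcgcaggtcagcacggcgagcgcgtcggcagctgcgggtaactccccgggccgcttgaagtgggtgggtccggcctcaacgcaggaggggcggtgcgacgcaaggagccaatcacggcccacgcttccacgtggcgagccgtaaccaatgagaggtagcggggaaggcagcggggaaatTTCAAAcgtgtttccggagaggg
Cenpa: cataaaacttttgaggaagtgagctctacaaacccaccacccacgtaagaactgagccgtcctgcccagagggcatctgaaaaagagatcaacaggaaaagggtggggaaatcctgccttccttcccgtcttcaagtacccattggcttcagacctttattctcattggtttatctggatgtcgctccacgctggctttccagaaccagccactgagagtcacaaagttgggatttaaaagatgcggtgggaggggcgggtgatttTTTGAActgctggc
A match of these letters describes the window and is not a site of binding. Knl1 also ranked among these genes, but its match began at 32, outside the bases shown. The 21 compared genes with a CHR match had a median log2 difference of -0.16, haploid minus diploid, with 14 below 0, and the 19 without one had a median of -0.12, with 13 below 0. Over all features with a window the medians were 0.03 with a match and 0.02 without, so presence of the letters hardly separated the differences in either set.

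Signals are given as log2 of the spot intensity minus the 75th percentile of its array, so 0 is that percentile. The level of 1 probe is not comparable with that of another, and all differences are haploid minus diploid. The 75th percentile lay between 526 and 553 intensity units on the haploid arrays and between 617 and 907 on the diploid arrays, and 53.6% to 59.7% and 55.1% to 65.0% of probes were well above background. The pluripotency gene Pou5f1 stood at 3.38 and 3.33 in haploid cells, against 3.26 and 3.51 in diploid cells, and all 10 preset ESC markers were measured (summed level 216 to 223 in haploid cells and 185 to 210 in diploid cells, in units of the 75th percentile). Of the 10, 4 (40%) were higher and 3 (30%) lower in haploid cells without overlap, against 26% and 20.9% of all features. Their differences ran from -0.51 (Tdgf1) to 0.35 (Dppa5a). Of 12 fibroblast markers, which would mark feeder cells, 11 were measured, with a summed level of 10.7 to 13.8 in haploid and 6.15 to 8.26 in diploid cells. Of the 11, 8 (72.7%) were higher on both haploid arrays than on both diploid arrays, against 26% of all features. The other 3 were below 0, and 1 of them, Dcn, was lower without overlap (9.09%, against 20.9% of all features). For trophectoderm, 6 of 9 markers were measured, summing to 15.3 to 18.8 and 13.8 to 14.2, without Cdx2, Elf5 and Hand1, which did not pass the filter. Of the 6, 3 (50%) were higher without overlap and 1 (16.7%), Eomes, was lower, against 26% and 20.9% of all features. For primitive endoderm, 2 of 7 were measured, Gata6 and Gata4, summing to 0.05 to 0.09 and 0.10 to 0.14. On haploid array 1 they read -5.80 and -5.14, below the lowest signal well above background there (-4.66). Both thus passed the filter through the diploid group alone, where they were higher, and no direction is read from them. The part of other cells in the results below was not tested. In bulk samples like these, fewer cells in G2 and mitosis and less RNA per such cell cannot be told apart.

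Kinetochore and checkpoint genes lay slightly lower in haploid cells as a set, and no single gene passed the test. Of the 44 compared, 29 (65.9%) were below 0, against 46.8% of all features, and their median difference was -0.12, with values from -0.81 to 0.27, against 0.02 for all features. In 19 genes (43.2%) both haploid arrays lay below both diploid arrays, which was so for 20.9% of all features. In 6 genes (13.6%) both lay above, against 26% of all features. With limma and Benjamini-Hochberg adjustment over all features, 0 of the 44 were called at 0.05, against 0.111% of all features. At an unadjusted p under 0.05 there were 3, Ska2, Sgo2a and Bub1b, or 6.82% against 11.7% of all features. The differences were small: 4 genes, Ska2, Bub1b, Ttk and Hjurp, differed by more than 0.5 on the log2 scale (9.09%, against 14.0% of all features), and none by more than 1. With normexp background correction the median of the 44 was 0.09, with 19 genes below 0, and that of all features -0.10. That correction compressed diploid array 2 (interquartile range of 2.17, against 4.04 and 4.002 on the haploid arrays and 4.07 on diploid array 1).

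**Figure D1:**
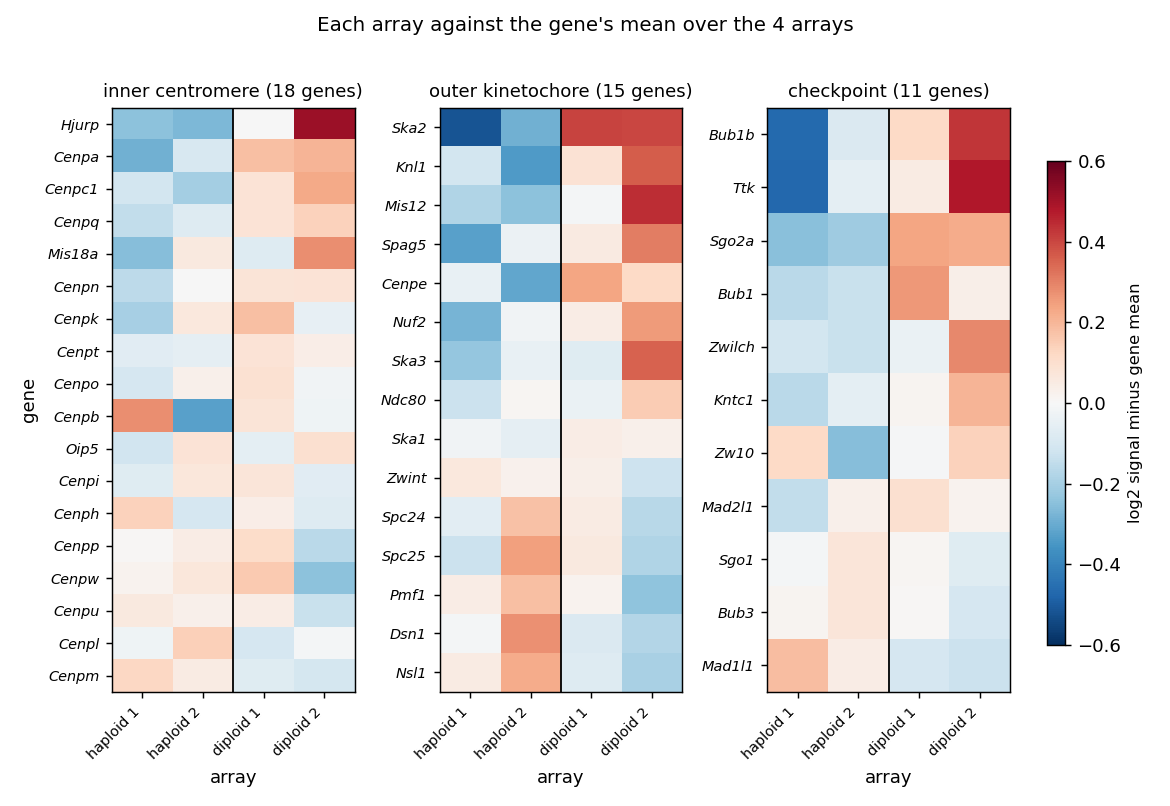
Signal of each of the 44 genes on each array minus that gene's mean over the 4 arrays (log2, colour scale from -0.6 in blue to 0.6 in red), by class, with haploid arrays left of the line and diploid arrays right of it. Genes are sorted by their difference; the top rows (Hjurp, Ska2, Bub1b) are blue on the haploid arrays and red on diploid array 2, and the bottom rows (Cenpm, Nsl1, Mad1l1) show paler colours the other way round.

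The arrays of a group also differed from each other. Over the 44 genes the median deviation from a gene's own mean was -0.11 and -0.01 on haploid arrays 1 and 2, and 0.05 and 0.04 on diploid arrays 1 and 2. For checkpoint genes these medians were -0.15 and -0.06 in haploid cells, and 0.02 and 0.14 in diploid cells. For outer kinetochore genes they were -0.11 and -0.02, and 0.04 and 0.12. The inner centromere genes did not separate the groups in this way, with -0.09 and 0.03 in haploid cells and 0.08 and -0.02 in diploid cells.

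Inner centromere genes had a median difference of -0.06 (18 genes, 12 below 0), and their leading members were CENP-A itself and its loading factor. Cenpa, the histone H3 variant that marks the centromere, read 3.45 and 3.64 in haploid cells, against 3.92 and 3.94 in diploid cells. Both haploid values were below both diploid values, a 1.31-fold lower signal (difference -0.38 ± 0.17, adjusted p = 0.451 by limma), which normexp reduced to -0.03. Here and below, errors are standard errors (SE) of the limma fit, with 2 arrays per group. That fit draws the spread of each gene towards the spread of all features. Hjurp, the chaperone that deposits CENP-A, read -2.74 and -2.76 in haploid cells, against -2.50 and -1.98 in diploid cells. The haploid arrays were nearly equal, while the diploid arrays differed by 0.51, as much as the groups did (difference -0.51 ± 0.22, adjusted p = 0.438). Its further probes differed by -0.69 and -0.09, so all 3 had the same sign at unequal size. It differed by -0.25 without diploid array 2, by -0.77 without diploid array 1 and by -0.86 with normexp. The Mis18 complex, which primes the centromere for that deposition, showed no separation. Mis18a read 0.64 and 0.96 in haploid cells, against 0.82 and 1.18 in diploid cells, and differed by -0.20 ± 0.21 (-0.03 with its other probe, 0.16 with normexp). Oip5, which encodes its partner Mis18-beta, read -0.12 and 0.07 in haploid cells, against -0.06 and 0.09 in diploid cells (difference -0.03 ± 0.18). The groups overlapped for both genes.

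The constitutive centromere-associated network (CCAN), which sits on CENP-A chromatin and carries the outer kinetochore, was close to even, with 7 of 13 genes below 0 and a median of -0.0035. Cenpc1, the CCAN scaffold that links CENP-A nucleosomes to the MIS12 complex, read -0.54 and -0.63 in haploid cells, against -0.35 and -0.20 in diploid cells (difference -0.31 ± 0.17, adjusted p = 0.518). Cenpq, of the CENP-O group, read -0.31 and -0.24 in haploid cells, against -0.08 and -0.03 in diploid cells (difference -0.22 ± 0.17, adjusted p = 0.611). Neither gene overlapped between groups, but the other probe of Cenpq differed by 0.01. Cenpn, which binds CENP-A nucleosomes directly, and Cenpt, whose product recruits NDC80, also lay lower without overlap, by -0.16 and -0.12, though with normexp Cenpn differed by -0.03 and Cenpt by 0.11. Cenpm was the inner gene with both haploid arrays above both diploid arrays, at 0.18. The CENP-H/I/K group gave 0.04 for Cenph (-0.03 with quantile normalization), -0.0035 for Cenpi (0.15 with normexp) and -0.13 for Cenpk (-0.09 with its other probe, 0.16 with normexp). Cenpl and Cenpu differed by 0.12 and 0.09 (0.08 with the other probe of Cenpu), and Cenpw, the histone-fold partner of CENP-T, by 0.09 (-0.04 with quantile normalization). Cenpo, Cenpp and Cenpb, the last a binder of centromeric satellite DNA, differed by -0.07, 0.05 and -0.05. The sign turned with normexp for Cenpo (0.08) and Cenpb (0.02), and the other probes of Cenpo and Cenpb differed by -0.20 and 0.23. Without haploid array 1 Cenpb differed by -0.35, and without haploid array 2 by 0.25.

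**Figure D2:**
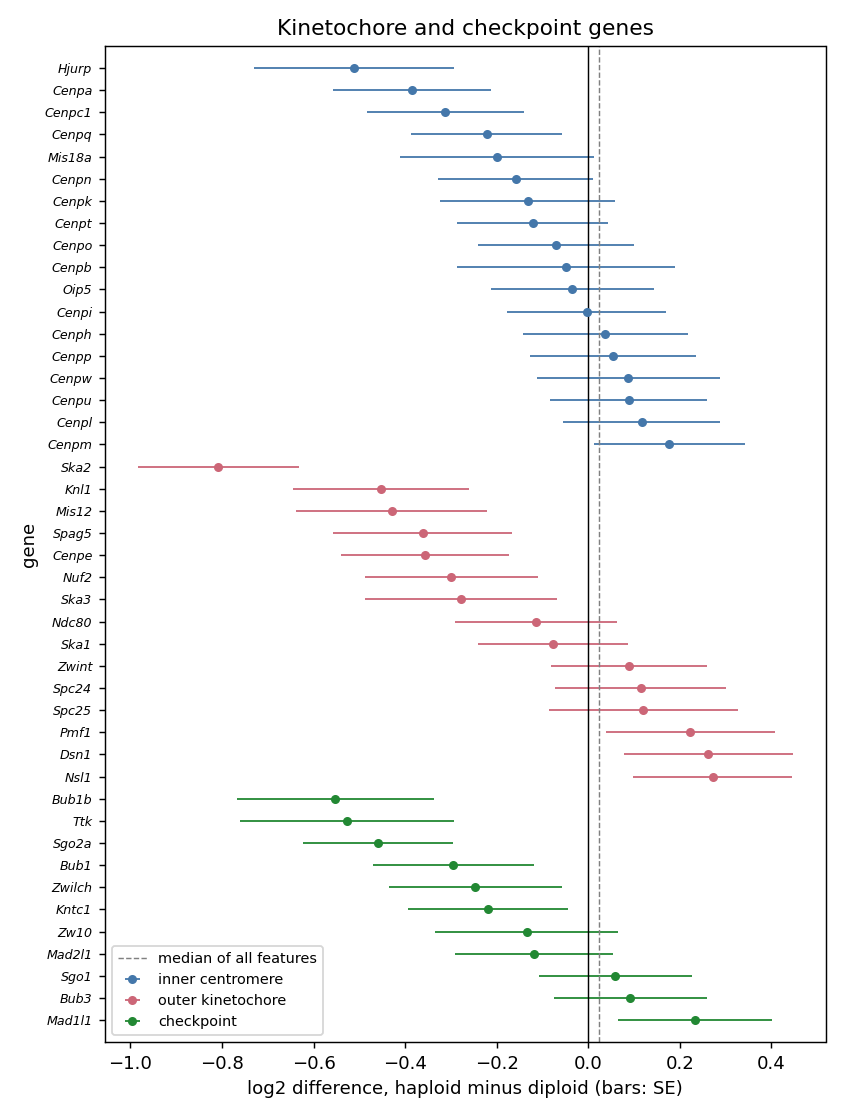
Log2 difference, haploid minus diploid, of the 44 genes (points) with the standard error of the limma fit (bars, n = 2 per group), by class. The dashed line is the median of all features (0.02); Ska2 lies furthest left at -0.81, and Nsl1, Dsn1, Mad1l1 and Pmf1 lie furthest right at 0.22 to 0.27.

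Outer kinetochore genes had a median difference of -0.11 (15 genes, 9 below 0) and held both the lowest and the highest difference of all 44. Ska2, a subunit of the SKA complex that keeps kinetochores on shrinking microtubule ends, read -4.88 and -4.65 in haploid cells, against -3.95 and -3.96 in diploid cells. Every haploid value was below every diploid value (difference -0.81 ± 0.18, 95% interval -1.23 to -0.38, limma adjusted p = 0.184). The probe was well above background on 1 of 2 haploid arrays, not on haploid array 1, so the size of this difference rests partly on a reading within background. Ska2 thus passed the filter through the diploid group alone, where it was higher, and it is included in the counts of the whole set. Where all 4 arrays had to be above background Ska2 dropped out. In that setting 28 of 43 genes were below 0, with a median of -0.12. The other SKA subunits differed less, Ska3 by -0.28 ± 0.21 with overlapping groups and Ska1 by -0.08 ± 0.16 without overlap (0.20 with normexp).

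Within the KMN network, the joined KNL1, MIS12 and NDC80 complexes, the subunits did not move together. Knl1, the scaffold on which BUB proteins assemble, read -2.51 and -2.74 in haploid cells, against -2.31 and -2.03 in diploid cells (difference -0.45 ± 0.19, limma adjusted p = 0.435). Its binding partner Zwint differed by 0.09 ± 0.17 and overlapped (-0.00019 with quantile normalization). Mis12, whose product bridges the inner and outer kinetochore, read -2.34 and -2.41 in haploid cells, against -2.17 and -1.72 in diploid cells (difference -0.43 ± 0.21, adjusted p = 0.484). The other 3 subunits of its complex lay higher in haploid cells, each without overlap, which was so for 26% of all features. Nsl1 differed by 0.27 ± 0.17, Dsn1 by 0.26 ± 0.18 and Pmf1 by 0.22 ± 0.18. Nsl1 read 1.56 and 1.73 in haploid cells, against 1.43 and 1.31 in diploid cells. Dsn1 read 0.15 and 0.44 in haploid cells, against 0.08 and -0.01 in diploid cells, and Pmf1 read 3.14 and 3.28, against 3.11 and 2.85. None of the 4 genes was called. Mis12 stayed below 0 and its partners above 0 with normexp, quantile normalization and the value table. Since none of the 4 overlapped between groups, leaving out an array could not turn a sign. The size of the Mis12 difference depended on the arrays, at -0.20 without diploid array 2 and -0.66 without diploid array 1, and it was -0.68 with normexp. The split followed probe brightness. Knl1 and Mis12, which lay below 0, had mean signals of -2.40 and -2.16. The genes above 0 were brighter, at 0.16 (Dsn1), 1.51 (Nsl1), 3.09 (Pmf1) and 3.47 (Zwint). The further probes of Nsl1 and Pmf1 were dimmer, overlapped between groups and differed by 0.02 and 0.10. The part of brightness in this contrast was not tested.

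The NDC80 complex, a rod that holds the microtubule at one end and the inner kinetochore at the other, had a median difference of about 0. Ndc80 read -0.71 and -0.57 in haploid cells, against -0.63 and -0.44 in diploid cells (difference -0.11 ± 0.18). Nuf2, its partner at the microtubule end, read -0.50 and -0.25 in haploid cells, against -0.18 and 0.03 in diploid cells, and was the only subunit without overlap (-0.30 ± 0.19, limma adjusted p = 0.56). The subunits at the inner end, Spc24 and Spc25, overlapped. Spc24 read 2.73 and 2.97 in haploid cells, against 2.84 and 2.63 in diploid cells (0.11 ± 0.19). Spc25 read 4.12 and 4.49 in haploid cells, against 4.30 and 4.07 in diploid cells (0.12 ± 0.21, or -0.015 with quantile normalization). Here too the subunits below 0 were the dimmer ones. Ndc80 and Nuf2 had mean signals of -0.59 and -0.22, against 2.79 for Spc24 and 4.25 for Spc25.

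Cenpe and Spag5 lay lower in haploid cells without passing the test. Cenpe, a kinesin that carries chromosomes to the spindle equator, read 2.37 and 2.10 in haploid cells, against 2.65 and 2.53 in diploid cells (difference -0.36 ± 0.18, limma adjusted p = 0.501). Spag5 (astrin), which stabilises attached kinetochores, differed by -0.36 ± 0.20. Both were without overlap, and with normexp they differed by -0.015 and -0.14. Cenpf, a large protein of the fibrous corona, read -5.42 and -5.48 in haploid cells, against -4.71 and -4.19 in diploid cells. It was well above background on 0 haploid arrays and 1 diploid array, so no fold is given, and Cenpf was not tested.

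Checkpoint genes had the lowest class median, -0.22 (11 genes, 8 below 0). Without overlap, 6 (54.5%) lay lower and 2 (18.2%) higher, against 20.9% and 26% of all features. Bub1b and Ttk had the largest differences of the class, and Sgo2a the largest relative to its error. Bub1b encodes BUBR1, a part of the mitotic checkpoint complex that inhibits CDC20. It read 0.88 and 1.26 in haploid cells, against 1.47 and 1.78 in diploid cells. No haploid value reached a diploid one, and the signal was 1.47-fold lower (difference -0.55 ± 0.21, 95% interval -1.07 to -0.03, limma adjusted p = 0.402). Ttk, the kinase MPS1 that starts checkpoint signalling at unattached kinetochores, read -3.01 and -2.60 in haploid cells, against -2.49 and -2.06 in diploid cells (difference -0.53 ± 0.23, adjusted p = 0.45). The groups did not overlap, but the closest arrays, haploid 2 and diploid 1, were nearer to each other than to the arrays of their own group. Bub1, the kinase that marks centromeric histone H2A, read 1.92 and 1.95 in haploid cells, against 2.34 and 2.12 in diploid cells (difference -0.29 ± 0.18, adjusted p = 0.54). With normexp Bub1b differed by -0.30, Ttk by -0.79 and Bub1 by -0.05. Without haploid array 1 Bub1b differed by -0.36, without diploid array 2 Ttk differed by -0.31, and without diploid array 1 Bub1 differed by -0.18.

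Mad2l1, Bub3 and Mad1l1 either overlapped between the groups or lay higher in haploid cells. Mad2l1, the protein that captures CDC20, read 3.79 and 3.97 in haploid cells, against 4.03 and 3.96 in diploid cells. The groups overlapped (difference -0.12 ± 0.17), its further probes differed by -0.25 and 0.09, and with normexp the difference was 0.25. Bub3, the adaptor that brings BUB1 and BUBR1 to KNL1, read 3.62 and 3.68 in haploid cells, against 3.61 and 3.50 in diploid cells (0.09 ± 0.17, or -0.0087 with quantile normalization). Mad1l1, the kinetochore receptor of MAD2, read 1.08 and 0.94 in haploid cells, against 0.80 and 0.77 in diploid cells (0.23 ± 0.17, limma adjusted p = 0.605). Both lay higher in haploid cells without overlap, and their 95% intervals, -0.31 to 0.50 and -0.18 to 0.64, cover 0.

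The RZZ complex, which brings dynein and MAD1 to kinetochores, lay lower in all 3 subunits. Zwilch differed by -0.25 ± 0.19 (-0.10 with its other probe) and Kntc1 by -0.22 ± 0.17, both without overlap, and Zw10 by -0.13 ± 0.20 with overlap. With normexp Zwilch and Zw10 turned to 0.11 and 0.10, and Kntc1 stood at -0.02. The shugoshins, which shield centromeric cohesin from cleavage, parted. Sgo2a, needed in mouse meiosis, read -0.55 and -0.52 in haploid cells, against -0.07 and -0.08 in diploid cells. Replicates of each group lay within 0.04 of each other, and the signal was 1.38-fold lower in haploid cells (difference -0.46 ± 0.16, 95% interval -0.86 to -0.06, limma adjusted p = 0.364). Sgo1, the mitotic form, read 2.89 and 2.97 in haploid cells, against 2.91 and 2.83 in diploid cells, with overlap (0.06 ± 0.17).

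Brightness of the probe moved with these differences. Of the 31 genes whose mean signal exceeded the 75th percentile, 17 were below 0, with a median of -0.05, against 0.08 for the 8251 features of that range. Of the 13 dimmer genes, 12 were below 0, with a median of -0.31, against -0.05 for the 9712 dimmer features. Across the 44 genes the difference correlated with mean signal at r = 0.56 (Spearman 0.43), and across all features at 0.19 (Spearman 0.26). These are descriptions across genes that share the same 4 arrays. Ska2, Ttk, Hjurp, Knl1 and Mis12 were the 5 dimmest of the 44, while Bub1b, Cenpa, Cenpe and Spag5 were lower at signals above the 75th percentile. The part of brightness in the result was not tested.

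**Figure D3:**
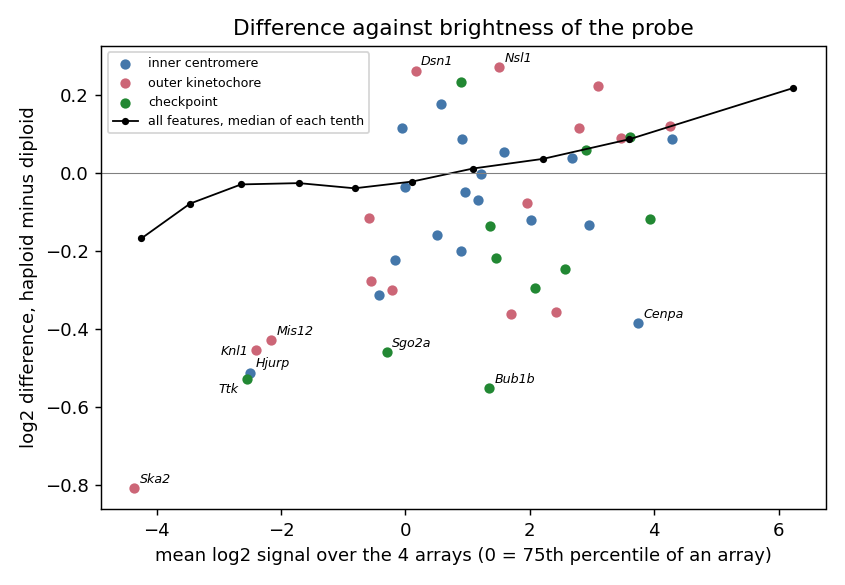
Log2 difference, haploid minus diploid, against mean log2 signal over the 4 arrays for the 44 genes (coloured by class) and the medians of all features in 10 equal classes of brightness (black line). The line runs from -0.17 to 0.22, and Ska2 at the dim end and Bub1b and Cenpa further right lie well below it.

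Partners outside the 45 genes differed in both directions, with list medians from -0.07 to 0.13, against -0.12 for the 44 genes. Of those measured 0 passed the limma test after adjustment. Of 12 centromere partners 6 were below 0 (median 0.01). Rbbp7, a histone chaperone, differed by 0.50 ± 0.17 (limma adjusted p = 0.34). Of 12 corona and checkpoint partners 8 were below 0 (median -0.04). Spdl1, which brings dynein to the RZZ complex, differed by -0.63 ± 0.27, and Mad2l1bp, which takes MAD2 out of the checkpoint complex, by 0.35 ± 0.18. Of 9 measured microtubule attachment partners 5 were below 0 (median -0.07), with Mapre1, a plus-end protein, at 0.35 ± 0.18 and the kinesin gene Kif18a at -0.34 ± 0.18. In the chromosomal passenger complex, which corrects wrong attachments, Birc5 and Incenp differed by 0.28 ± 0.22 and 0.13 ± 0.17 (3 of 4 measured, median 0.13), and Aurkb did not pass the filter.

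The order of the class medians, checkpoint lowest and inner centromere highest, held with quantile normalization and the value table and without either haploid array, but not in the 3 settings that follow. Normexp placed checkpoint and inner centromere genes each at about 0.10 and outer kinetochore genes at -0.015. Without diploid array 2 the medians were -0.12 (checkpoint), -0.11 (inner) and -0.06 (outer), and without diploid array 1 they were -0.207 (checkpoint), -0.014 (inner) and -0.2096 (outer). With quantile normalization, the value table and each array left out, all 3 medians were below 0 and below the median of all features. With normexp all 3 were above the median of all features, which was -0.10.

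**Figure D4:**
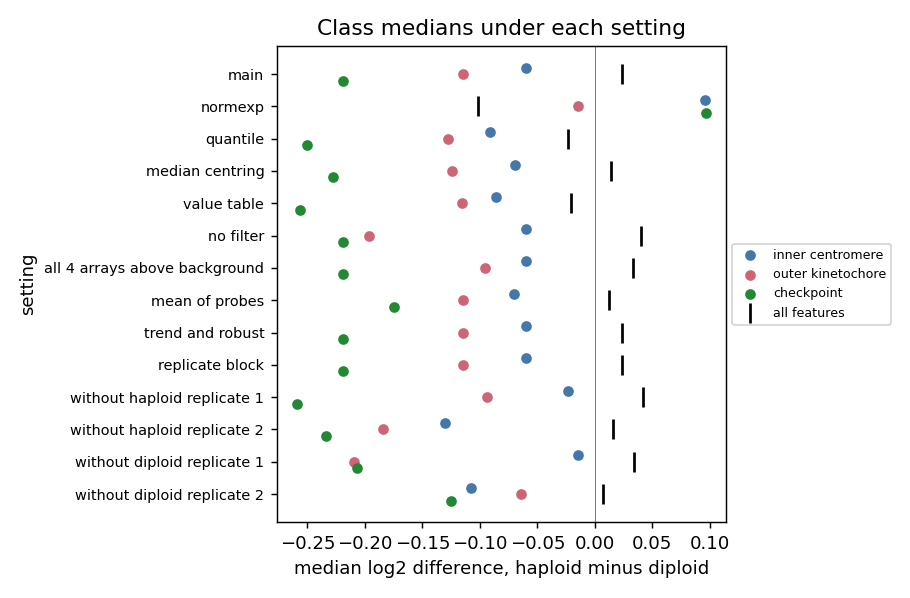
Median log2 difference, haploid minus diploid, of each class (coloured points) and of all features (black bars) in each of 14 settings. Normexp is the only setting with class medians above 0; in the others checkpoint genes lie between -0.26 and -0.12.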

How the data were processed

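Per the file headers, the authors made the deposited scanner files with Agilent Feature Extraction 11.0.1.1, which gives each spot a background-corrected intensity on a linear scale. Per the labels' protocols, 0.2 ug of total RNA was amplified and labelled with Cy3 for one-colour arrays, all 4 of which were on 1 slide. The authors' deposited value table also holds linear intensity, with column medians of 28.4, 28.3 (haploid) and 28.4, 28.3 (diploid). Its ranks followed the scanner values (Spearman 0.99988 to 0.99996); its normalization is not stated.

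Control spots and outlier spots (121 to 168 of 43020 per array) were left out, spots of a probe were averaged, and log2 signal minus the array's 75th percentile was used. No spot was saturated. Of 39409 probes, 26043 were named through RefSeq accessions (GRCm38.p6). The filter kept probes flagged well above background on each array of at least 1 group. The comparison used lmFit and eBayes of limma 3.58.1 in R 4.3.3, two-sided, over 17963 features, and was checked on simulated data. Its p-values cover only the spread between these arrays, whose small number limits precision. Python 3.11.15, pandas 2.3.3 and scipy 1.17.1 were used. The members, classes, lists and naming rule were chosen with earlier results of these data known. Array values were given for the 4 genes of each class with the largest absolute moderated t, for preset complexes and, after their values were seen, for the rest of the MIS12 complex, Sgo1, Cenpf, Cenpi and Pou5f1. Deviations of same-numbered arrays correlated at 0.05, so numbers were not treated as pairs. Partner and marker lists are given with their counts in the report, and 1 partner gene that the naming rule picks is not reported here.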

Additional observations from a re-analysis of the deposited data

How the results depend on the processing

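The number of members called was 0 in the main setting and in all 13 others, with a lowest limma adjusted p among members of 0.11 (Bub1b, prior variance with trend and robust fitting) to 0.873. At unadjusted p under 0.05 the members numbered 3, and 0 to 8 elsewhere. The number of all features called was 20, against 0 with normexp, 0 without a filter, 5 with quantile normalization, 4 with the value table, 82 where all 4 arrays had to be above background and 425 with trend and robust fitting. With the replicate number as a block it was 2, and the block left every difference as it was. Leaving out 1 array gave 226 (haploid replicate 1), 293 (haploid replicate 2), 0 (diploid replicate 1) and 0 (diploid replicate 2), with a lone array assumed to vary like the other group. Normexp, run on the median spot signal because the files hold no mean signal, placed the medians at 0.088 (all members), 0.095 (inner centromere) and 0.096 (checkpoint), and shifted the median of all features by more than any other scaling. With 1 array left out the inner centromere median ran from -0.13 to -0.014, that of the outer kinetochore from -0.21 to -0.06 and that of the checkpoint from -0.26 to -0.12.

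Of 21 genes with preset array values, the sign turned for 6: Mis18a (0.16) and Mad2l1 (0.25) with normexp, Spc25 (-0.015) and Bub3 (-0.0087) with quantile normalization, Spc25 (-0.0054) and Bub3 (-0.0071) with the value table, Spc24 from -0.0058 to 0.23, Spc25 from -0.067 to 0.31 and Oip5 from -0.13 to 0.063 with 1 array left out. The causes were not tested. Differences of Ska2 ran from -0.92 to -0.69, of Bub1b from -0.74 to -0.36, of Ttk from -0.74 to -0.31, of Hjurp from -0.77 to -0.25 and of Sgo2a from -0.48 to -0.44 with 1 array left out. Dim probes such as Ska2 and Cenpf limit what can be said of those genes. Slide could not be tested as a batch, since all arrays shared it.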

Other observations

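Cenpi, the only one of the 45 genes on chromosome X, differed by -0.0035 ± 0.17 (haploid minus diploid, SE of the limma fit, n = 2 per group). It read 1.15 and 1.29 in haploid cells and 1.29 and 1.15 in diploid cells. The 498 compared features of chromosome X had a median difference of 0.11, with 322 above 0, while the 12541 autosomal features had a median of 0.01. Across the 44 compared genes the difference correlated with the log2 span of the gene at r = -0.11 (Spearman -0.25), and across 13041 named features at -0.15 (Spearman -0.18), as descriptions across genes.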
